A study of Homo sapiens and Mus musculus with 4 samples.

Results

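Clusters of short peaks in the ATF4 chromatin immunoprecipitation and sequencing (ChIP-seq) list of mouse bone marrow are described here. A cluster, called a run below, is a stretch of at least 5 peaks on chromosomes 1 to 19, each narrower than 2000 bp, in which the gap from the end of one peak to the start of the next is at most 3000 bp. Runs were thus chosen by peak widths and gaps, and values of width, gap, span and number are given as descriptions with no test. Of the 83961 peaks in the 2 lists of the series, 83088 belong to the mouse list, 81297 of these lie on autosomes and 73623 are autosomal and short. Runs took in 6418 short peaks, in 1126 runs.

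The mouse list came from 1 ATF4 ChIP library of bone marrow cells of C57BL/6 mice, made with antibody ab184909, set against 1 input library of the same tissue made without antibody. The labels state neither the age, sex nor number of the animals, and whole marrow mixes blood-forming stem cells, maturing myeloid, erythroid and lymphoid cells and stroma, so the cells behind a peak cannot be told apart. The other list came from 1 ATF4 ChIP library and 1 input library of KG1a, a cell line from human acute myeloid leukaemia. Both KG1a samples are labelled with 20% serum. No replicate libraries were analysed here, and the lists carry only positions, so depth and peak strength are unknown.

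ATF4 is a basic leucine zipper transcription factor. Its messenger RNA is translated more when phosphorylated eIF2 slows protein synthesis in general, and the protein then turns on genes of amino acid supply, tRNA charging and stress adaptation. It binds DNA as a dimer, often with a C/EBP protein, a family that also directs granulocyte and monocyte development in marrow. Enhancers, the stretches of DNA that raise transcription from a distance, often hold several factor-bound sites close together. Whether the peaks of a run are separate sites or pieces of 1 broad stretch of signal was not tested. Mouse gene names and DNA sequence were not used here, so each run is named by its GRCm38 position, counted from 1.

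Runs were a small part of a list in which short peaks often had close neighbours. Of the 73623 short autosomal peaks, 44233 (60.1%) had another short peak within the allowed gap, and 8.72% lay in runs (Wilson 95% interval 8.52 to 8.92%, counting error only). Because the rule made this share, nothing is read from it. Chains became fewer with size at a similar rate below and above the threshold. There were 29390 single short peaks, 9771 pairs, 3975 chains of 3 and 1587 chains of 4 just outside the rule. Just inside it were 638 chains of 5, which is 40.2% of the number of chains of 4, where chains of 4 were 39.9% of the number of chains of 3. No step in these counts was seen at the size of 5.

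Most runs were close to the smallest size allowed. Runs of 5 made up 56.7% of all runs and runs of 6, of which there were 307, made up 27.3%. Larger runs were 108 with 7 peaks, 43 with 8, 21 with 9 and 6 with 10. No run had 11 peaks, 2 had 12 and 1 had 13. In KG1a the same rule found no run. Its 860 short autosomal peaks fell into 854 single peaks and 3 pairs, in a list of 873 peaks in all, so a comparison of clustering between the lists was not possible.

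**Figure D1:**
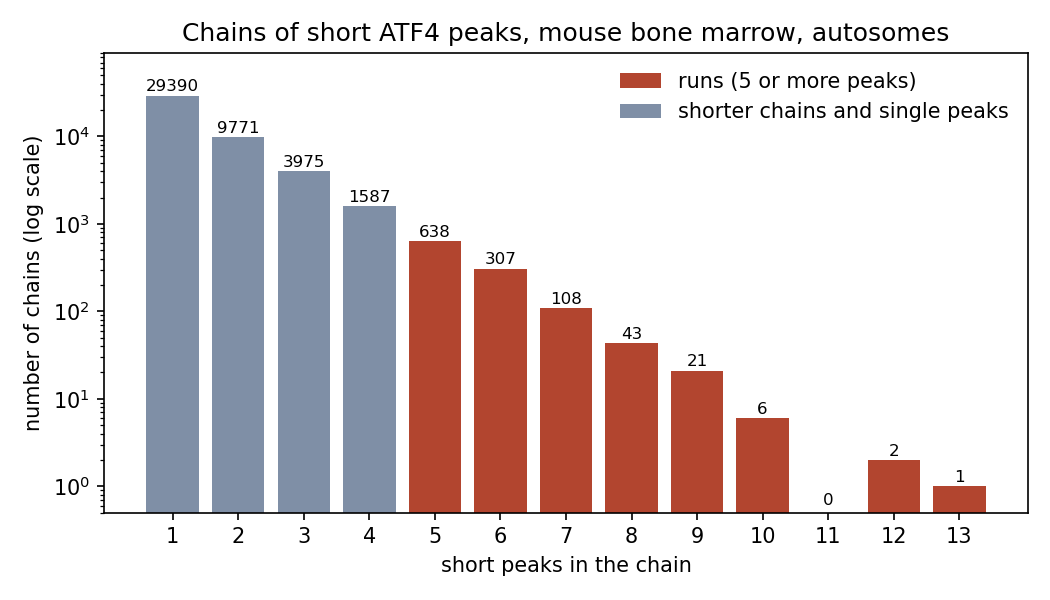
Number of chains (vertical axis, log scale) by the number of short peaks in the chain (horizontal axis) on mouse autosomes. Red bars are the 1126 runs of 5 or more peaks and grey bars are single peaks and chains of 2 to 4. Counts fall with size from 29390 single peaks to 1 chain of 13, without a step between 4 and 5.

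The runs were short stretches of chromatin. Their span ranged between 3802 and 21884 bp, with a median of 7818.5 bp and quartiles at 6574 and 9401 bp. Chains of 4, just outside the rule, had a median span of 5373 bp. All runs together spanned 9.23 Mb, of which peaks covered 4.44 Mb, or 48.1%. That is 9.41% of the 47.2 Mb under short autosomal peaks and 5.96% of the 74.6 Mb under all autosomal peaks.

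Single runs varied in how densely they were filled. In the median run 48.7% of the span was covered by peaks, and 511 runs (45.4%) were covered over more than 50% of their span. The fullest was a 5-peak run of 7414 bp on chromosome 5 from 68520869 to 68528282, with 80.2% covered and no gap above 431 bp. The sparsest was a 5-peak run of 9211 bp on chromosome 19 from 5213313 to 5222523, with 21.3% covered and gaps from 895 to 2804 bp. In the first the peaks were 316 to 1797 bp wide, and in the second 268 to 686 bp. The shortest run, also of 5 peaks, spanned 3802 bp on chromosome 1 from 87725549 to 87729350.

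The run with most peaks lay on chromosome 5 from 111975313 to 111996553. It held 13 short peaks in 21241 bp, 48.8% of it covered, with widths from 297 to 1883 bp and a median gap of 459.5 bp. Its first 10 peaks were followed by an interval of 2862 bp, a pair of peaks 269 bp apart and a last interval of 2897 bp. That last interval contained a peak of 2323 bp, from 111992880 to 111995202, which the rule had set aside for its width. A further run of 5 peaks began 5007 bp beyond its end, at 112001561, with a wide peak of 3018 bp between them. The 2 runs together reached to position 112010214.

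The longest run, 21884 bp with 12 peaks, lay on chromosome 14 from 55193001 to 55214884. Its peaks were more evenly placed than those on chromosome 5, with a median gap of 1022 bp, a largest gap of 2061 bp and widths from 270 to 1794 bp. The nearest peak of 2000 bp or more was 192.9 kb away. The other run of 12 peaks lay on chromosome 11 from 61307127 to 61327108. It spanned 19982 bp, with widths from 268 to 1830 bp, and its nearest wide peak was 17.1 kb away.

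Runs of 10 peaks numbered 6, and their spans ranged from 8309 to 16394 bp. The longest lay on chromosome 6 from 19874378 to 19890771, 1594 bp from a wide peak and with 52.1% of its span covered. Shorter ones lay on chromosome 11 from 69686415 to 69701286, on chromosome 14 from 25422942 to 25435952 and on chromosome 2 from 172525731 to 172538040. The run on chromosome 12 from 114205973 to 114217844 was 974.2 kb from the nearest wide peak, the farthest of the 15 runs named for number of peaks or span. The most compact was the run on chromosome 8 from 31253518 to 31261826. Its 10 peaks were all narrow, from 278 to 797 bp, and no gap exceeded 651 bp.

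The other runs named for their span had 7 to 9 peaks. On chromosome 3 from 89282987 to 89300027, 9 peaks with a median width of 1010 bp spanned 17041 bp. On chromosome 4 from 141920862 to 141937622, 9 peaks with a median width of 1057 bp spanned 16761 bp. The 9 peaks on chromosome 1 from 39232344 to 39248436 had a median width of 968 bp, and this run lay 351 bp from a wide peak. A second named run of chromosome 12, from 115081533 to 115099071, held 9 peaks with a median width of 616 bp in 17539 bp. Runs of 8 peaks on chromosome 13 from 99174478 to 99191454 and of 7 peaks on chromosome 5 from 51434107 to 51450795 reached 16977 and 16689 bp by larger gaps, with medians of 1340 and 1864 bp.

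**Figure D2:**
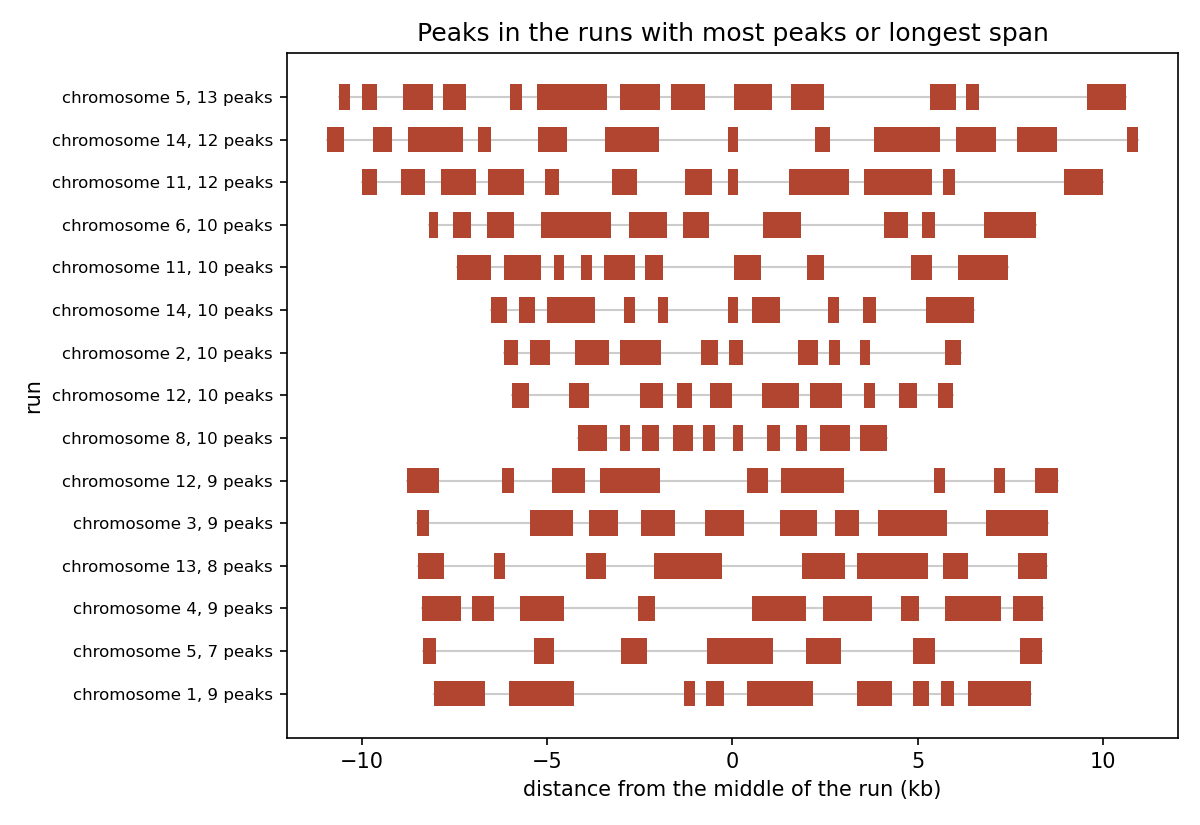
Short peaks (red blocks, to scale) in the 15 runs with most peaks or longest span, by distance from the middle of the run in kb (horizontal axis); each row is 1 run and grey lines mark its span. The run on chromosome 8 packs 10 peaks into 8309 bp, whereas the 7-peak run on chromosome 5 needs 16689 bp; peaks of 2000 bp or more are not drawn.

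Peaks in runs were slightly wider than other short peaks. Their median width was 559 bp (interquartile range 374 to 878 bp), against 523 bp in chains of 2 to 4 and 460 bp for single peaks. Widths above 1000 bp were found in 19.9% of run peaks and 16.1% of other short peaks. Widths of 350 bp or less were found in 20.7% of run peaks and 25.5% of other short peaks. The ranges overlapped almost completely, as all kinds started at 265 bp and reached at least 1997 bp. By run size the median width was 561.5 bp in runs of 5, 554 bp in runs of 6, 549 bp in runs of 7, 548.5 bp in runs of 8 and 663 bp in runs of 9. In the few larger runs it was 491.5 bp with 10 peaks, 708 bp with 12 and 796 bp with 13.

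Runs joined peaks of unequal width. The widest peak of a run had a median of 1239.5 bp and the narrowest a median of 312 bp. These are extremes of several peaks, and short peaks as a whole also vary in width. No like values were computed for other groups of short peaks, so unequal width is not read as a trait of runs. At least 1 peak wider than 1000 bp was present in 776 runs (68.9%), and 3 or more in 107 runs (9.50%). In 11 runs (0.977%) every peak was 500 bp or less. Inner peaks had a median width of 572 bp, against 534 bp for the peaks at either end. In the 638 runs of 5, the widest peak was the first in 111 runs, the second in 141, the middle one in 117, the fourth in 142 and the last in 127. The widest peak thus fell at each of the 5 places in 17.4 to 22.3% of these runs.

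Gaps inside runs were mostly far below the limit of 3000 bp. The median of 5292 gaps was 661.5 bp (interquartile range 397 to 1214 bp), against 732 bp for 22482 gaps in chains of 2 to 4. Gaps of 500 bp or less made up 37.4% in runs and 33.6% in chains of 2 to 4. Gaps above 2000 bp made up 9.05% in runs and 11.5% in chains of 2 to 4. No gap was smaller than 268 bp in either kind, and the fullest class of 100 bp, from 300 to 400 bp, held 946 gaps (17.9%) in runs and 3622 (16.1%) in chains of 2 to 4. The class from 200 to 300 bp, filled only from 268 bp upwards, held 390 gaps in runs and 1456 in chains of 2 to 4. Many neighbours thus stood barely farther apart than the smallest separation in the list.

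At the limits of the rule the list changed little. Gaps of 2901 to 3000 bp, just inside, numbered 242 and gaps of 3001 to 3100 bp, just outside, 237. Peaks of 1950 to 1999 bp numbered 266 and peaks of 2000 to 2049 bp numbered 284. In 11 runs a dropped wide peak lay inside the run. These wide peaks were 2003 to 2323 bp. The rule bounds such widths, to at least 2000 bp by the width limit and below 3000 bp by the largest gap.

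**Figure D3:**
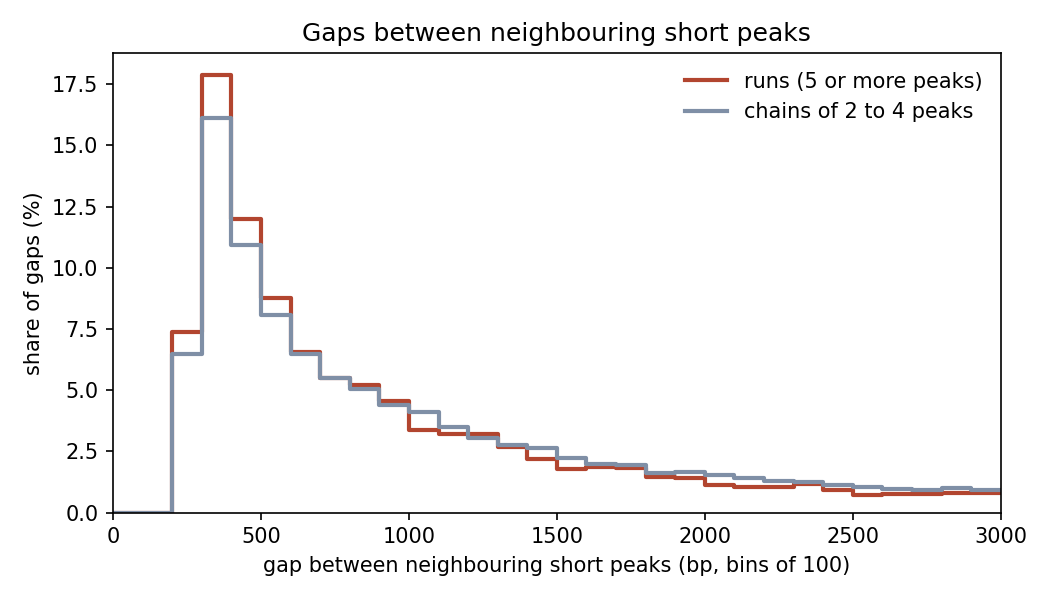
Share of gaps (vertical axis, percent) by gap length in bins of 100 bp (horizontal axis) in runs (red) and in chains of 2 to 4 peaks (grey). The smallest gap is 268 bp, so the bin from 200 to 300 bp is only partly open to gaps. The fullest bin is 300 to 400 bp, with 17.9% of gaps in runs and 16.1% in chains of 2 to 4.

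Spacing within runs ranged from nearly even to uneven. The rule limits the gaps and no like value was computed for other chains, so this is not read as a trait of runs. The coefficient of variation of the distance between neighbouring peak centres, which is 0 for even spacing, had a median of 0.37 over runs and ranged from 0.046 to 0.811. It was under 0.2 in 140 runs (12.4%). The most even run lay on chromosome 7 from 10750779 to 10755920, with 5 peaks in 5142 bp and gaps from 274 to 568 bp. The compact 10-peak run on chromosome 8 had a value of 0.142 and the 13-peak run on chromosome 5 had 0.564.

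Peaks of 2000 bp or more, which the rule removed before chaining, were also counted around the runs. A wide peak lay within 3000 bp of 160 of 1126 runs, 14.2% (Wilson 95% interval 12.3 to 16.4%). Over chains of every size, single peaks included, the share was 13.2%. It was 13.7% for chains of 4, 14.7% for chains of 2 or 3 and 12.4% for single peaks. Within 50 kb the shares were 41.5% for runs (interval 38.6 to 44.4%) and 36.1% for chains of 1 to 4 (interval 35.6 to 36.5%). The median distance to the nearest wide peak was 74.4 kb from runs and 92.5 kb from chains of 1 to 4. The difference within 3000 bp changed sign with widths below 1000 bp and in the first 50% of the list. These differences were not tested, since neighbouring peaks are not independent, a longer chain reaches farther, and only 1 list was at hand.

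The place of a peak in the deposited list was not used by the rule. The file does not say what the order follows, but wider peaks came earlier. In stretches of the list peaks also stood in order of position. In the 10-peak run on chromosome 2, for example, places 31099 to 31102 fell on its own peaks in order of position. Place is therefore not a plain rank. Of the run peaks, 1223 (19.1%, Wilson 95% interval 18.1 to 20.0%) stood in the first 25% of the list, where 18.4% of all short autosomal peaks stood. With runs of at least 3 peaks, the share in runs was below that of other short peaks, as it was with at least 10 peaks or with widths below 1000 bp. In the next 25% were 32.2% of run peaks, against 29.1% of peaks in chains of 2 to 4 and 22.6% of single peaks. In the last 25% were 21.5% of run peaks, 25.7% of peaks in chains of 2 to 4 and 30.9% of single peaks. Of these 4 parts the second held most run peaks and the fourth most single peaks; the differences were not tested.

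Width moved with this order. Among peaks of 350 bp or less, 26.2% of run peaks and 23.6% of other short peaks stood in the first 50% of the list. Among peaks above 500 and up to 1000 bp the shares were 54.8% for run peaks and 51.2% for other short peaks. Above 1000 bp they were 85.8% for run peaks and 83.0% for other short peaks. Between 350 and 500 bp they were 37.7% for run peaks and 32.8% for other short peaks, so that the share was higher for run peaks in each of the 4 width classes. In the first 25% of the list the direction was the other way in each of the 4 width classes, although the shares over all widths were 19.1% for run peaks and 18.4% for other short peaks. Between 500 and 1000 bp, for example, it held 17.7% of run peaks and 19.9% of other short peaks.

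The first and last places of a run's peaks lay a median of 50878 places apart, at least 11344 and at most 80830 apart. No like value was computed for other groups of peaks. In the 12-peak run on chromosome 14, the peak from 55209962 to 55211050, 1089 bp wide, had place 9077, while its last peak, from 55214593 to 55214884 and 292 bp wide, had place 73368.

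**Figure D4:**
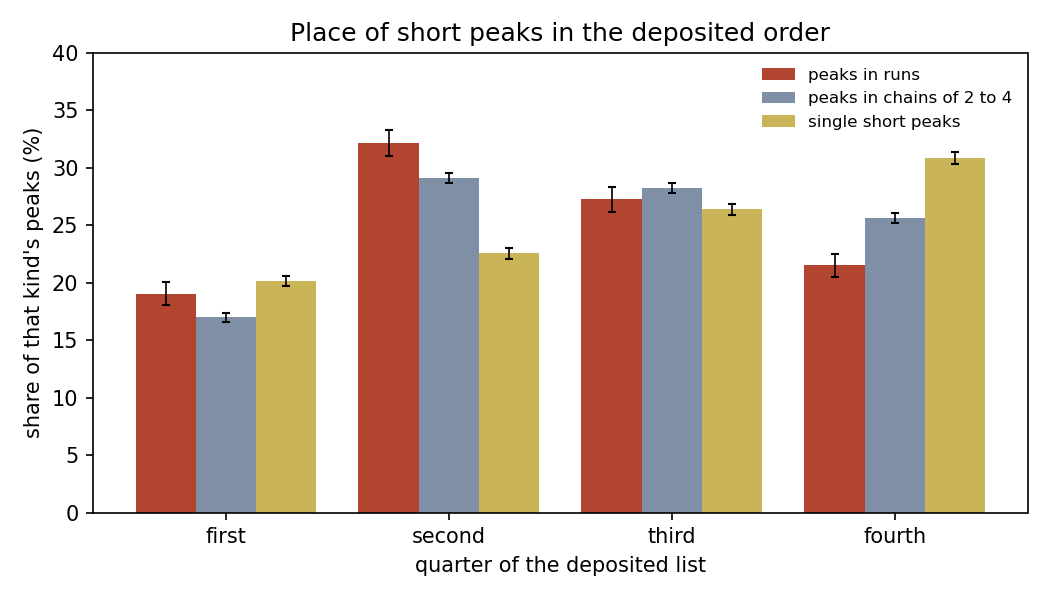
Share of each kind of short peak (vertical axis, percent) in the 4 equal parts of the deposited list (horizontal axis), for peaks in runs (red), in chains of 2 to 4 (grey) and single peaks (yellow); bars on top are Wilson 95% intervals. Run peaks are highest in the second part, at 32.2%, and single peaks in the fourth, at 30.9%.

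All 19 autosomes carried runs, in unequal numbers. Chromosome 7 had the most, 97, followed by chromosome 5 with 88 and chromosome 11 with 84. Chromosome 19, the shortest, had 26. Per length, with the highest peak position as the length, chromosome 11 had 0.689 runs per Mb, chromosome 7 had 0.668 and chromosome 9 had 0.612, against 0.458 over all autosomes. Chromosome 3 was lowest at 0.275 runs per Mb, and chromosomes 14 and 10 followed with 0.345 each.

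Runs varied between chromosomes more than short peaks did. The highest and lowest chromosomes differed 2.50-fold in runs per Mb and 1.63-fold in short peaks per Mb, the extremes being chromosomes 11 and 3 in both. A run needs at least 5 close peaks, so run density need not rise in proportion to peak density. Nothing is therefore read from the larger range. Across the 19 chromosomes Spearman's rho between these densities was 0.93, a description of points that share 1 list and 1 rule. The share of short peaks that lay in runs ranged from 6.62% on chromosome 3 to 11.1% on chromosome 7. Chromosomes 15, 11 and 17 also stood above 10%, at 10.4, 10.4 and 10.2%. Chromosome 8 had 32.3 short peaks per Mb, above the 29.95 of all autosomes, yet 7.59% of them in runs, whereas chromosome 16 had 25.1 per Mb and 9.02% in runs. Over all 19 chromosomes Spearman's rho between peak density and share in runs was 0.62. The order by peak density and by share in runs was therefore related but not the same.

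**Figure D5:**
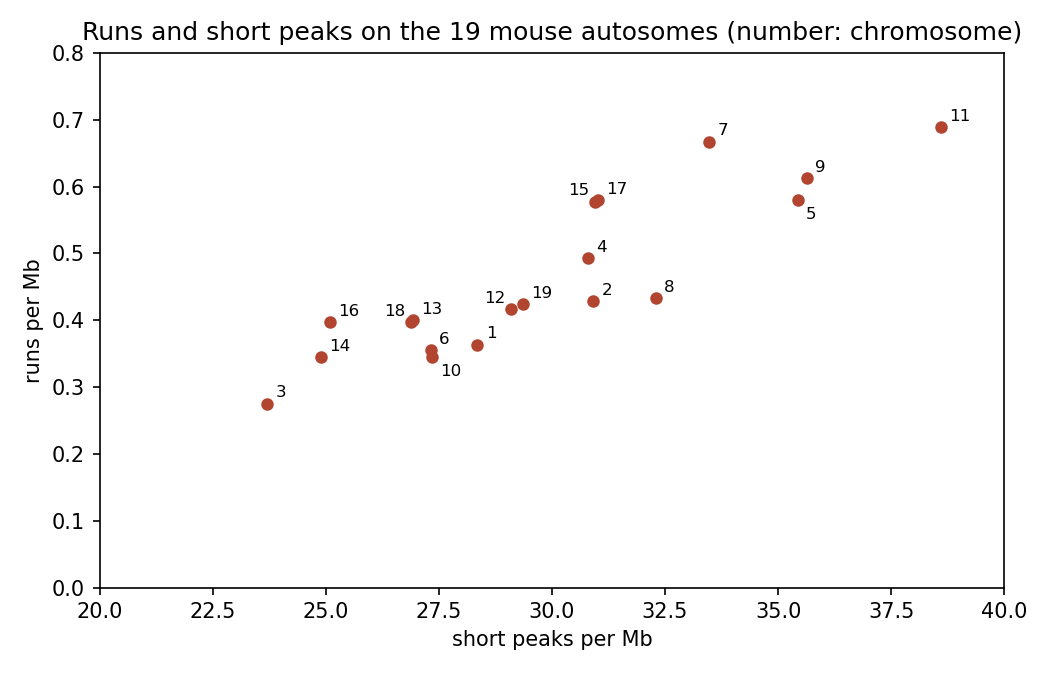
Runs per Mb (vertical axis) against short peaks per Mb (horizontal axis, starting at 20) for the 19 mouse autosomes, each point labelled with its chromosome. Chromosome 3 is lowest on both, at 0.275 and 23.7, and chromosome 11 highest, at 0.689 and 38.6; chromosomes 7, 15 and 17 lie above chromosomes 2 and 8 of similar peak density.

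Over broad stretches of the chromosomes runs were spread much like the other short peaks. With each chromosome cut into 3 equal stretches, the high-coordinate stretch, farthest from the centromere in the acrocentric mouse chromosomes, held 461 runs (40.9%) and 39.4% of other short peaks. The low-coordinate stretch held 311 runs (27.6%) and 28.1% of other short peaks. The same was counted in windows of 1 Mb, ranked by the short peaks outside runs. The top 10%, which are 247 windows with at least 43 such peaks each, contained 220 runs (19.5%) and 19.5% of other short peaks. That ranking picks windows by the other short peaks and leaves run peaks out. The equal shares therefore do not show an equal spread. Ranked by all short peaks, run peaks included, the top windows contained 329 runs (29.2%) and 19.1% of other short peaks, but there each run adds its own peaks to the rank of its window.

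Most of these windows held no run or 1 run. The counts that run density alone would give were not computed, so nothing is read from how many windows held more. With each run counted at its middle, of 2468 windows, 1615 (65.4%) held no run, 643 held 1, 164 held 2, 32 held 3, 11 held 4 and 3 held 5. The 3 fullest windows lay on chromosome 4 from 134 to 135 Mb, on chromosome 15 from 82 to 83 Mb and on chromosome 16 from 6 to 7 Mb. The window on chromosome 4 had the most peaks in runs, 33 of its 89 short peaks. Its largest run, of 9 peaks, lay from 134835384 to 134847867. The window on chromosome 16 had 26 of its 65 short peaks in runs, in 4 runs of 5 and 1 run of 6 between 6004348 and 6942504. The window on chromosome 15 had 25 of its 65 short peaks in runs, besides 2 peaks of its runs that lay below 82 Mb. Of its 5 runs, the pair with 6 peaks lay from 82292259 to 82304296 and from 82932170 to 82940068.

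Neighbouring runs were mostly far apart, at a density of 0.458 runs per Mb over all autosomes. The distances that this density alone would give were not computed. Whether runs lay closer together or farther apart than that was not tested. The median distance from one run to the next was 1287 kb over 1107 neighbouring pairs, and the largest was 16.1 Mb. Within 100 kb of each other lay 70 pairs (6.32%), within 50 kb 36 pairs and within 10 kb 6 pairs. The closest pair, on chromosome 13 from 52409500 to 52419956 and from 52424678 to 52431925, consisted of 5 peaks each, 4721 bp apart. The next lay on chromosome 5, at the 13-peak run described above, and on chromosome 11, from 92018812 to 92024492 and from 92030564 to 92036822. Of the 6 pairs, only that on chromosome 5 had a wide peak between its runs.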

How the data were processed

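The authors deposited 1 peak list per cell source, with 3 columns (chromosome, start, end) and no header. These other values, positions in bases, carry no score, as deposited. Per the submitters' processing notes, the tools were CASAVA 1.4, Bowtie2, deepTools and MACS2 and the builds GRCm38 and GRCh38; the sources used here state no peak threshold. A caller's merging distance and threshold set widths, gaps and so the runs. Starts were read as counted from 0. With Python 3.11.15 and pandas 2.3.3, peaks of 2000 bp or more were dropped, the rest sorted and chained (gap 3000 bp or less), and chains of 5 or more kept; wide peaks were used only as neighbours. Chaining was checked on 20 simulated lists. The rule, members and lists were chosen with earlier results of these data known. Runs named are the 10 with most peaks (ties by span) and the 10 with the longest span, 15 in all; other runs named were chosen after their values were seen. No test was run: each group has 1 library, and depth is unknown. Wilson 95% intervals cover counting error only and treat peaks as independent. Gene assignment, motifs and the planned gene lists need a mouse annotation or genome and were not used here.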

Additional observations from a re-analysis of the deposited data

Results flagged for a closer look

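Runs also occurred outside the autosomes, in peaks that entered no comparison above. On chromosome X the same rule found 11 runs with 62 of 1477 short peaks (4.20%), the largest of 9 peaks and the longest of 12837 bp. That is 0.0647 runs per Mb. Chromosome Y held 1 run of 6 peaks over 7864 bp among 113 short peaks. Unplaced scaffolds held 3 runs with 17 of 76 short peaks (22.4%), none with more than 6 peaks. On the autosomes 8.72% of short peaks lay in runs, at 0.458 runs per Mb. Run counts also depend on the density of short peaks, which was not compared here. No control level was at hand for these peaks, and their difference from the autosomes was not tested.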

How the results depend on the processing

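Of 96 values under other settings, 41 stayed within the limits set around the reported value, 50 moved beyond them and 5 changed direction. The limit was 1.5 times for counts and for the ratio of chromosome 11 to chromosome 3. For the other values it was the 95% interval. For differences that interval took in the counting error of the run side only. Run number depends on the rule. Values run in the order runs, peaks in runs, median span in bp and share of short peaks in runs. A largest gap of 1000 bp gave 308, 1664, 5998 and 2.26%; 5000 bp gave 1596, 9330, 9397 and 12.7%. At least 3 peaks gave 6688, 24691, 4544 and 33.5%, and at least 10 gave 9, 97, 14872 and 0.132%. Widths below 1000 bp gave 512, 2834, 7314 and 4.61%, and all widths, with the share taken of all autosomal peaks, 1775, 10388, 9335 and 12.8%. The first 50% of the list gave 114, 609, 8339 and 1.83%. That part holds fewer peaks and a larger share of the wider ones, and the effects of these were not told apart. Letting a wide peak end the run (1117 runs) or adding chromosome X (1137) changed none of these beyond the limits.

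The same settings moved the make-up of the runs. The median gap, 661.5 bp as reported, was 464 bp with a largest gap of 1000 bp, 772 bp with 5000 bp, 692 bp with at least 3 peaks, 540.5 bp with at least 10, 774 bp with widths below 1000 bp and 622 bp with all widths. The median width of run peaks exceeded that of other peaks by 64 bp as reported, and by 98.5 bp with a largest gap of 1000 bp, 27 bp with widths below 1000 bp and 94.5 bp with all widths. The share of run peaks in the first 25% of the list, 19.1% as reported, was 22.7% with a largest gap of 1000 bp, 17.8 and 12.4% with at least 3 and 10 peaks, 10.4% with widths below 1000 bp and 27.4% with all widths. The share of runs with a wide peak within 3000 bp, 14.2% as reported, was 20.6% with a largest gap of 5000 bp, 22.2% with at least 10 peaks, 8.98% with widths below 1000 bp and 11.4% in the first 50% of the list, and 18.2% when 10000 bp counted as near. In percentage points, run peaks minus other short peaks in the first 25% of the list was 0.679 as reported. It was 4.38 with a largest gap of 1000 bp and 2.55 with all widths, but -1.005 with at least 3 peaks, -6.07 with at least 10 and -1.88 with widths below 1000 bp. Runs minus smaller chains with a wide peak within 3000 bp was 1.04 as reported. It was 8.30 with a largest gap of 5000 bp and 9.03 with at least 10 peaks, but -3.01 with widths below 1000 bp and -2.58 in the first 50% of the list. The ratio of chromosome 11 to chromosome 3 in runs per Mb, 2.50 as reported, was 4.87 with a largest gap of 1000 bp. The causes of these shifts were not tested. Settings on gene overlap, distance to gene ends and motifs were not run. Those on make-up and chromosomes were chosen after the data were seen. No paired analysis was possible because each group has 1 library. The depth is unknown, so which missing peaks would join or break runs cannot be told.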
